A study of Homo sapiens with 2 samples.

Results

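The 37 genes of the human mitochondrial genome were examined in U2AF2 eCLIP libraries from HEL cells, by the strand that encodes them. The genes were taken by identifier from the GENCODE 29 annotation of chrM, and all 37 were among the 58347 genes of the deposited table. They were 9 light-strand coded genes (MT-ND6 and 8 tRNA genes, on the annotation's minus strand) and 28 heavy-strand coded genes (12 mRNA, 14 tRNA and both rRNA genes, on the plus strand). HEL is a human erythroleukemia cell line, grown here without treatment, and the study comprised 1 group of 2 biological replicates. In eCLIP, ultraviolet light fixes RNA to the protein that touches it, and the protein is recovered with an antibody, here against U2AF2, and its RNA sequenced. No input or control library was used here. No value is therefore an enrichment, and classes of genes were compared within each library.

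U2AF2 is the large subunit of the nuclear splicing factor U2AF and binds pyrimidine-rich stretches before 3' splice sites. Mitochondrial genes carry no introns. Both strands of the circular mitochondrial DNA are transcribed into long precursors from promoters in the control region, which lies between MT-TP and MT-TF, and the precursors are cut mostly at the tRNAs that separate the other genes. The mRNAs encode core subunits of respiratory complexes I, III, IV and V, while the rRNAs and tRNAs serve the mitochondrial ribosome. In most cells the rRNAs are the most abundant stable mitochondrial transcripts, and the light strand encodes few genes, so that most of its primary transcript is non-coding.

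The sequences below belong mostly to genes near the ends of the range of values. The longest unbroken run of C and T is in capitals, and they read 5' to 3' from the GENCODE 29 transcripts (GRCh38). Of the light-strand tRNA genes, MT-TQ and MT-TP held the most counts, MT-TN the fewest, and MT-TS1 has the longest run. These are the first 4 and are shown whole. They are MT-TQ (glutamine, chrM:4329-4400), MT-TP (proline, chrM:15956-16023), MT-TS1 (serine, chrM:7446-7514) and MT-TN (asparagine, chrM:5657-5729), all on the minus strand. The others are windows of up to 20 bases on each side of the run. MT-ND6 is shown on its own minus strand (chrM:14591-14639) and on the plus strand (chrM:14261-14312), because the counted strand is uncertain. MT-ND5 (chrM:14077-14137) and MT-CYB (chrM:15423-15482) were the heavy-strand mRNAs with the highest level per kb, and MT-ND2 (chrM:5189-5241) and MT-RNR1 (chrM:936-985) the lowest mRNA and rRNA, all on the plus strand.
MT-TQ: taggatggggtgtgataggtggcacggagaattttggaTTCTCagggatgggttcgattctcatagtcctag
MT-TP: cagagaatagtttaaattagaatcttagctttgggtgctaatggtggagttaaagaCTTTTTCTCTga
MT-TS1: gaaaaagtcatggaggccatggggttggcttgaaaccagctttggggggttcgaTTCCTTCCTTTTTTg
MT-TN: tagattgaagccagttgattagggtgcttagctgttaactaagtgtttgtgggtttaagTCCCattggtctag
MT-ND6, own strand: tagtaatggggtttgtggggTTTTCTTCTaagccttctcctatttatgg
MT-ND6, other strand: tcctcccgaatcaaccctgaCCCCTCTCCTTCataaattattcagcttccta
MT-ND5: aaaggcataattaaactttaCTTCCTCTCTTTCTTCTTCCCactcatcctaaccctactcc
MT-CYB: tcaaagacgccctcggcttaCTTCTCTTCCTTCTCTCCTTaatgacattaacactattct
MT-ND2: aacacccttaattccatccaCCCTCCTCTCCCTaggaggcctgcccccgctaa
MT-RNR1: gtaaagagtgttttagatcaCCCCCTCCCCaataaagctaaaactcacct

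The gene totals were 995428 counts in replicate 1 and 1350116 in replicate 2. The mitochondrial genes received 5559 of these in replicate 1 (0.558%, exact 95% binomial interval 0.544 to 0.573) and 7054 in replicate 2 (0.522%, 0.510 to 0.535). Reads that touched more than 1 gene or mapped to several places were tallied apart from the genes. Whether the counting used strand, and which, is not given in the sources used here. A value thus belongs to a gene's place in the annotation and not to an RNA of known strand. Single-exon non-coding nuclear genes lying only opposite to protein-coding genes (4204 genes) averaged 35.2 and 47.9 counts per kb in replicates 1 and 2. Those lying only on the same strand as one (4442 genes) averaged 1.23 and 1.61, a ratio of 29.2 ± 0.873 (SD, n = 2). The part of this lean in the mitochondrial values was not tested. Of the marker genes of the cell line, 2 of 9 erythroid genes and 1 of 6 megakaryocytic genes reached 10 counts in each library, with the platelet factor gene PF4 at 0. Counting intervals and limits cover counting error only and take each read as independent. Duplicate removal is not described, and the intervals are too narrow if duplicates were kept.

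All 13 mRNA genes, 1 of 2 rRNA genes and 5 of 22 tRNA genes reached 10 counts in each library, 19 of 37 in all. The same minimum was passed by 15.4% of all genes in the table, by 24.8% of nuclear protein-coding genes and by 1.99% of nuclear small non-coding genes. Among light-strand coded genes 4 of 9 passed, namely MT-ND6, MT-TQ, MT-TP and MT-TY. Among heavy-strand coded genes 15 of 28 passed, namely the 12 mRNAs, MT-RNR2, MT-TT and MT-TL2. The light-strand genes held 22.2% ± 1.24 (SD, n = 2) of the mitochondrial counts on 6.99% of the summed gene length, and the heavy-strand genes 77.8% ± 1.24 on 93.0% of it.

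The single light-strand mRNA stood above every heavy-strand mRNA per kb. MT-ND6 (chrM:14149-14673), a membrane subunit of complex I, held 862 and 1121 counts in replicates 1 and 2. Its level was 1615 ± 18.6 CPM per kb (SD, n = 2), where CPM means counts in every 1e+06 of the scaled library total. The 12 heavy-strand mRNAs together held 4272 and 5309 counts, or 378 ± 16.5 CPM per kb. The ratio of light-strand to heavy-strand mRNA counts per kb was 4.18 in replicate 1 (exact 95% interval 3.88 to 4.50) and 4.37 in replicate 2 (4.10 to 4.66). With medians over genes in place of sums it was 7.24 ± 0.0676 (SD, n = 2). With 1 group and 1 light-strand mRNA there was no replicated test, and the SD is that between the libraries. The size of the ratio depended on where along the genome the heavy-strand mRNAs lay. MT-ND6 exceeded the 6 later heavy-strand mRNAs (MT-CO3 to MT-CYB) by 2.65 ± 0.0856 times and the 6 earlier ones (MT-ND1 to MT-ATP6) by 13.7 ± 0.427 times (SD, n = 2 each).

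**Figure D1:**
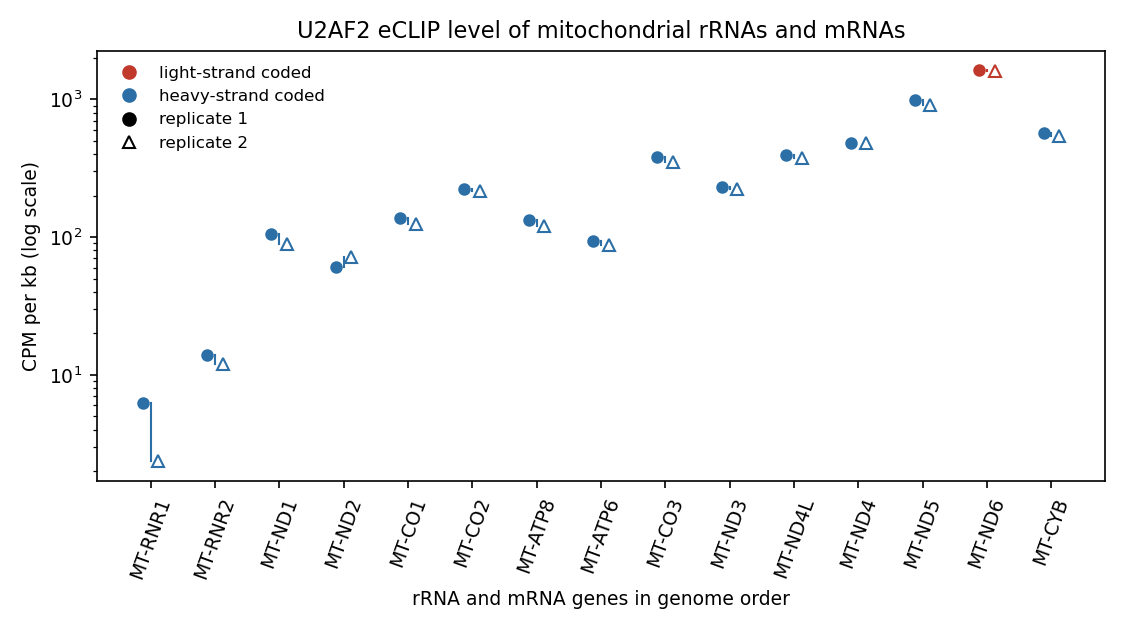
CPM per kb of gene length (log scale) for the 13 mRNA and 2 rRNA genes in genome order, with circles for replicate 1, triangles for replicate 2, red for light-strand and blue for heavy-strand coded genes. MT-ND6 is highest in both libraries, at 1628 and 1602 CPM per kb, both rRNA genes are lowest, and levels are higher toward the right.

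The neighbours of MT-ND6 were high on the other annotated strand. MT-ND5 (chrM:12337-14148), a heavy-strand complex I subunit that ends at the base before MT-ND6 begins in coordinates, held 1817 and 2201 counts, the most of any mitochondrial gene. Per kb it reached 953 ± 58.8 CPM (SD, n = 2). MT-CYB (chrM:14747-15887), the cytochrome b of complex III, lies on the other side and held 655 and 831 counts, or 558 ± 16.2 CPM per kb. MT-ND6 exceeded MT-ND5 per kb by 1.64 times in replicate 1 (exact interval 1.51 to 1.78) and 1.76 times in replicate 2 (1.63 to 1.89). It exceeded MT-CYB by 2.86 times (2.58 to 3.17) and 2.93 times (2.68 to 3.21). These were the 3 highest mRNAs per kb, on both annotated strands, and they lie in a row. The glutamate tRNA gene MT-TE, a light-strand gene between MT-ND6 and MT-CYB, held 5 and 15 counts.

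Heavy-strand mRNAs later in the genome had higher levels than earlier ones, though not at every step. The complex I genes MT-ND1 and MT-ND2, near the rRNAs, held 102 and 113, and 64 and 99 counts in replicates 1 and 2. Their levels were 97.2 ± 12.1 and 66.1 ± 7.33 CPM per kb (SD, n = 2). The complex IV gene MT-CO1, the catalytic subunit of cytochrome c oxidase, held 214 and 257 counts and MT-CO2 held 154 and 197. These came to 131 ± 8.90 and 220 ± 5.09 CPM per kb, above both complex I genes before them.

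The ATP synthase genes MT-ATP8 and MT-ATP6, which overlap in part, held 28 and 33, and 64 and 80 counts. At 127 ± 10.3 and 90.7 ± 3.58 CPM per kb (SD, n = 2) they lay below MT-CO2, the gene before them. MT-CO3, a structural subunit of complex IV, held 300 and 365 counts, or 364 ± 21.3 CPM per kb. The complex I genes MT-ND3 and MT-ND4L held 80 and 103, and 118 and 149 counts, or 226 ± 4.21 and 385 ± 12.5 CPM per kb, so that MT-ND3 also lay below the mRNA before it. MT-ND4, a proton-pumping subunit of complex I, held 676 and 881 counts, or 483 ± 4.84 CPM per kb, the highest of the heavy-strand mRNAs that come before MT-ND5.

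The 6 later heavy-strand mRNAs held 3646 and 4530 counts, against 626 and 779 for the 6 earlier ones. The ratio per kb was 5.17 in replicate 1 (exact 95% interval 4.75 to 5.64) and 5.16 in replicate 2 (4.78 to 5.58). Without MT-ND5 it was 3.83 ± 0.0623 (SD, n = 2). Over the 12 genes the Spearman correlation of counts per kb with genome order was 0.88, the same in each library. This is a description over genes that share a library, a precursor and neighbouring positions. When the 13 mRNAs and both rRNAs were ranked by CPM per kb, 3 of the 14 neighbouring pairs overlapped between libraries. They were MT-ND4L and MT-CO3, MT-CO1 and MT-ATP8, and MT-ND1 and MT-ATP6. MT-ND3 and MT-CO2 were barely apart, at 223.35 for the lower library of MT-ND3 and 223.29 CPM per kb for the higher of MT-CO2. For 7 pairs the exact interval of the ratio lay above 1 in both libraries. The order came from the mean of the same 2 libraries, which favours such separation, so these counts of pairs do not test it.

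By complex, the 7 complex I mRNAs held 66.5% ± 0.523 (SD, n = 2) of the mitochondrial counts at 566 ± 20.8 CPM per kb. The single complex III mRNA held 11.8% ± 0.00152 at 558 ± 16.2, the 3 complex IV mRNAs 11.8% ± 0.287 at 212 ± 11.3, and both complex V mRNAs 1.63% ± 0.0375 at 99.1 ± 5.14. Members of complex I differed from one another more than the complexes did, since MT-ND6 and MT-ND2 stand at the ends of the mRNA range. Within complex I, MT-ND6 exceeded its 6 heavy-strand partners by 3.43 ± 0.113 times per kb.

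The rRNA genes, both heavy-strand coded, held fewer counts for their length than any of the 13 mRNAs. MT-RNR2, the large rRNA, held 22 and 25 counts in replicates 1 and 2, and MT-RNR1, the small rRNA, held 6 and 3. Over both libraries they held 30.1 and 9.43 counts per kb. The 12 heavy-strand mRNAs exceeded both rRNAs per kb by 35.3 times in replicate 1 (exact 95% interval 24.4 to 53.1) and 43.8 times in replicate 2 (30.3 to 66.0). In genome order both rRNA genes also come before every mRNA, so class and position cannot be told apart for them. With the rRNAs included, the Spearman correlation of counts per kb with genome order was 0.93 over 14 heavy-strand genes.

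Light-strand tRNA genes held more counts per kb than heavy-strand tRNA genes, and most of that came from MT-TQ. MT-TQ held 248 and 407 counts in replicates 1 and 2, at 3829 ± 583 CPM per kb (SD, n = 2). MT-TP held 40 and 44 counts, and MT-TY, the tyrosine tRNA gene, 10 and 23. The other 5 light-strand tRNA genes held between 0 and 15 counts in a library, with MT-TN at 0 in both. Among heavy-strand tRNA genes MT-TT (threonine) held 24 and 38 counts and MT-TL2 (leucine) 15 and 18. The other 12 held between 0 and 12, with MT-TV (valine) and MT-TK (lysine) at 0 in both libraries. For a gene at 0 the limit, taken as 3 counts, was 2.98 CPM in replicate 1 and 2.25 CPM in the other library.

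**Figure D2:**
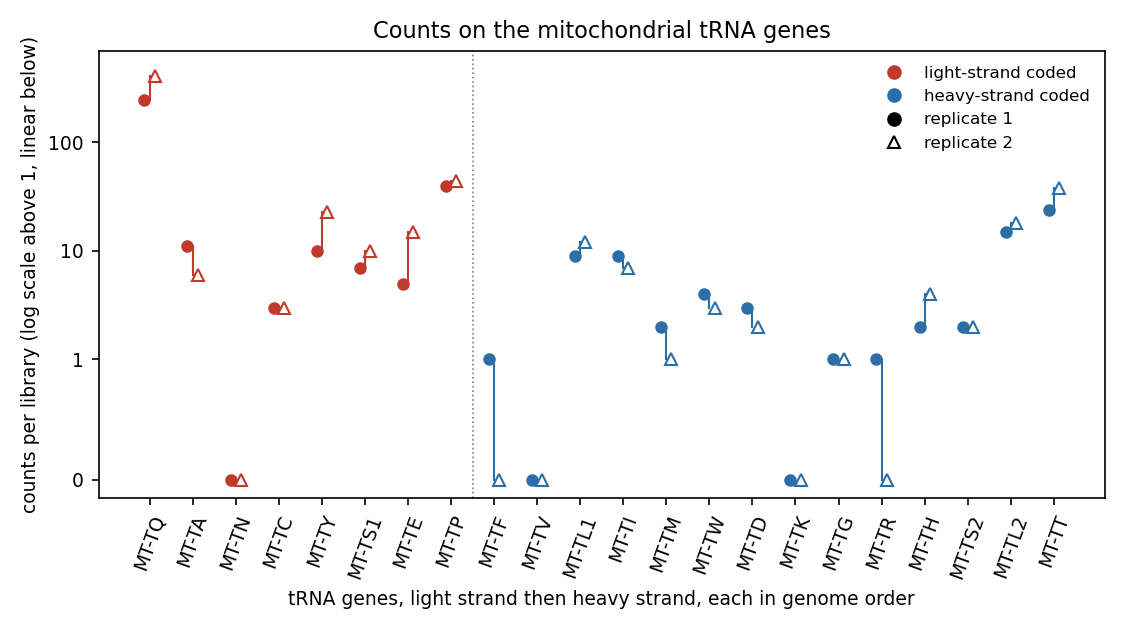
Counts on the 22 tRNA genes in replicate 1 (circles) and replicate 2 (triangles), light-strand genes in red to the left and heavy-strand genes in blue to the right, on an axis that is logarithmic above 1. MT-TQ, with 248 and 407 counts, lies far above the rest, and MT-TN, MT-TV and MT-TK lie at 0.

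In total the light-strand tRNA genes held 324 and 508 counts, against 73 and 88 for the heavy-strand ones. The ratio per kb was 7.69 in replicate 1 (exact 95% interval 5.95 to 10.1) and 10.0 in replicate 2 (7.96 to 12.7). Without MT-TQ the ratio was 2.07 (1.48 to 2.90) and 2.29 (1.70 to 3.08). MT-TQ, MT-TP and MT-TS1 were also the only members with no gene on their own strand within 100 bases, the length of a read. Their distances to the nearest such gene were 1186, 1213 and 1554 bases. The other 34 members, among them all 14 heavy-strand tRNAs, have such a neighbour. The table tallies reads on more than 1 gene as ambiguous, but whether a read crossing into a neighbour was so tallied depends on counting settings that are not given. Among tRNA genes with such a neighbour the ratio was 1.11 (0.694 to 1.72) in replicate 1 and 1.49 (1.02 to 2.14) in replicate 2. MT-TS1 shared the isolated position of MT-TQ but held 7 and 10 counts. The part of read length in the tRNA values was not tested further.

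The genes beside MT-TQ did not share its level. MT-TI (isoleucine), which overlaps MT-TQ on the other strand by 3 bases, held 9 and 7 counts, and MT-TM (methionine), on its other side, held 2 and 1. MT-TQ exceeded MT-TI per kb by 26.4 times in replicate 1 (exact 95% interval 13.7 to 58.4) and 55.7 times in replicate 2 (26.8 to 139). MT-TQ exceeded MT-ND6 per kb by 2.10 times (1.81 to 2.42) and 2.65 times (2.36 to 2.97). By counts without length MT-TQ was lower, with 248 and 407 against 862 and 1121. At 72 bases MT-TQ is shorter than a read of 100 bases, while MT-ND6 has 525 bases, so this ratio depends on the length used. It was not computed with length plus 99 bases. MT-TP and MT-TT, the last genes on either strand by coordinate though not by order of transcription, had a ratio per kb of 1.62 (0.952 to 2.81) and 1.12 (0.711 to 1.78). Both intervals included 1.

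Over all genes the ratio of light-strand to heavy-strand counts per kb was 3.61 in replicate 1 (exact 95% interval 3.38 to 3.85) and 3.998 in replicate 2 (3.78 to 4.23). It rested on MT-ND6 and MT-TQ. Without MT-ND6 it was 1.92 (1.71 to 2.16) and 2.43 (2.22 to 2.66). Without both it was 0.519 (0.408 to 0.651) and 0.556 (0.452 to 0.677), so the summed counts per kb of the remaining 7 light-strand genes, all tRNAs, lay below the sum over the heavy-strand genes, which include the mRNAs. Against heavy-strand tRNAs alone these 7 were higher, by the ratios of 2.07 and 2.29 given above. These 2 genes were left out after their values were seen.

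**Figure D3:**
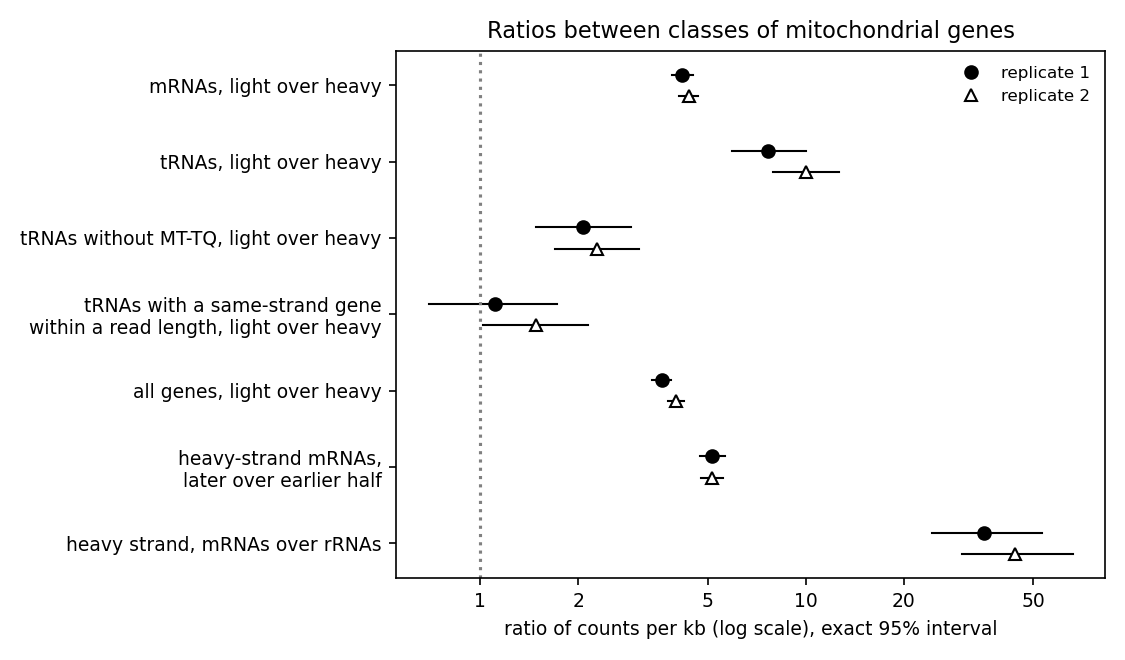
Ratio of summed counts per kb between classes (log scale) in replicate 1 (filled circles) and replicate 2 (open triangles), with exact 95% intervals for counting error and a dotted line at 1. The tRNA ratio moves from 7.69 and 10.0 toward 1 when MT-TQ, or all tRNAs without a close same-strand gene, are left out, while the later-over-earlier ratio is 5.17 and 5.16.

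Base composition was read from the same transcripts, because U2AF2 binds pyrimidines. On its own strand MT-ND6 was 44.8% C and T, with 37.7% T, and its longest run was 9 bases. The 12 heavy-strand mRNAs held 55.1% to 59.9% C and T (median 59.3%), and their longest runs were between 8 and 21 bases. The other strand of MT-ND6 was 55.2% C and T with a run of 12. The mRNA with the highest level per kb was thus the only one of 13 with a minority of pyrimidines on its own strand.

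Both rRNAs were 47.5% and 48.0% C and T. Over the 13 mRNAs and both rRNAs, counts per kb had a Spearman correlation of 0.21 with the share of C and T and 0.50 with the share of T on the own strand. With the shares on the other strand the correlations were -0.21 and -0.57, and the counted strand is uncertain. Over the 12 heavy-strand mRNAs alone the own-strand values were 0.20 and 0.06, and 0.33 with the longest run on the own strand. On the own strand MT-ND5 and MT-CYB carried the longest runs of these, 21 and 20 bases, and MT-ND2, lowest of the mRNAs per kb, one of 13. On the other strand the longest runs of MT-ND5, MT-CYB and MT-ND2 were 8, 7 and 7 bases. The correlation of counts per kb with the longest run on the other strand was 0.25 over the 12 heavy-strand mRNAs.

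Over the 22 tRNAs, light-strand and heavy-strand together, the correlation of counts per kb with the share of C and T on the own strand was -0.56. On the other strand it was 0.56, the same size with the sign turned by construction. Which sign applies depends on the counted strand, which is uncertain, and most tRNA counts were small. MT-TQ was 43.1% C and T on its own strand and 56.9% on the other. Its longest run on the own strand, 5 bases, was shorter than that of MT-TS1, 14 bases, which held 7 and 10 counts. These correlations are descriptions over genes of shared libraries and few counts, and the gene counts do not place reads within a gene.

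**Figure D4:**
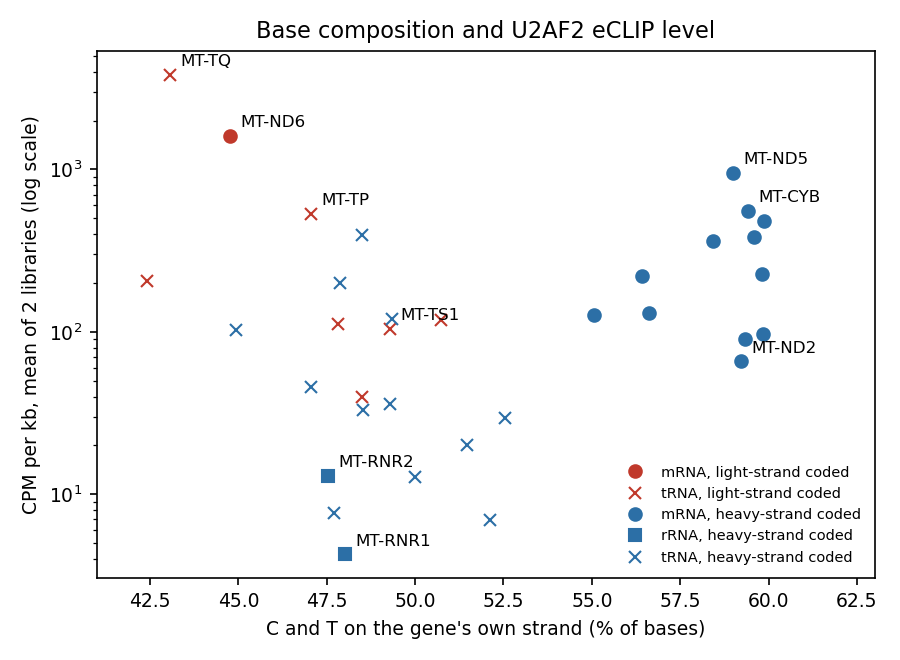
Mean CPM per kb over 2 libraries (log scale) against the percentage of C and T on each gene's own strand, for the 34 genes with a count, with shapes for class and colours for coding strand. MT-TQ (43.1%) and MT-ND6 (44.8%) are highest at the left, and the heavy-strand mRNAs form a separate group between 55.1% and 59.9%.

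The replicates were compared gene by gene. Across all genes that passed the minimum of 10 counts in both libraries, an exact two-sided binomial test at the scaled library sizes with Benjamini-Hochberg adjustment called 45 of 8983, or 0.501%. It called 0 of the 19 mitochondrial genes tested, of which 2 had an unadjusted p below 0.05. They were MT-TQ, higher in replicate 2 by 0.31 on the log2 scale (exact binomial p = 0.00727, adjusted p = 0.319), and MT-ND5, higher in replicate 1, with a log2 ratio of replicate 2 to replicate 1 of -0.13 (exact binomial p = 0.00614, adjusted p = 0.303). With DESeq2 size factors the same test also called 0. The test compares 2 libraries of 1 group.

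**Figure D5:**
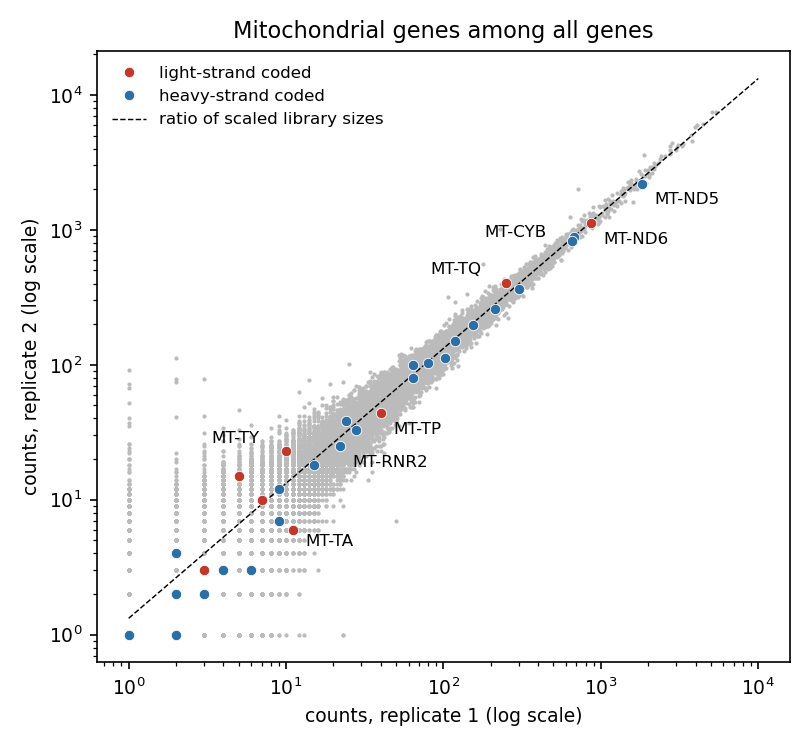
Counts in replicate 2 against replicate 1 (log scales) for all genes with a count in both (grey), with light-strand coded genes in red, heavy-strand coded genes in blue and a dashed line at the ratio of scaled library sizes. Mitochondrial genes with many counts lie near the line. Of the 19 genes tested, 15 lie below it and 4 above, among them MT-TQ (248 and 407 counts), slightly above, and MT-TY (10 and 23), further above.

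Set against the nuclear genes, MT-ND6 ranked 1 by counts per kb of exon among 19817 protein-coding genes, MT-ND5 4, MT-CYB 8, MT-ND4 11, MT-ND4L 15 and MT-CO3 17. The lowest mitochondrial mRNA, MT-ND2, ranked 371. By counts without length MT-ND5 ranked 42 among all genes, MT-ND6 146 and MT-TQ 715. Over both libraries the median was 529 counts per kb for the 13 mitochondrial mRNAs and 0.912 for 19804 nuclear protein-coding genes. These ranks and the nuclear median rest on the counted strand, which is uncertain. Of the uniquely mapped reads, 97.3% in replicate 1 and 97.4% in replicate 2 lay on no feature as counted, and the ranks on the other strand could not be computed from these counts.

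The nuclear genome holds pseudogene copies of mitochondrial genes, whose near-identical stretches can take or lose reads. Of 394 annotated copies, 6 (1.52%) reached 10 counts in each library, beside 15.4% of all genes in the table, and 307 held no count. In all, the mitochondrial genes held 5559 and 7054 counts in replicates 1 and 2, against 204 and 272 on the copies. The highest was MTND4P15 (chromosome 9), a copy of MT-ND4 that lies opposite the SPTLC1 gene, with 29 and 54 counts. It was followed by MTCO2P34 with 17 and 20, MTCO1P55 with 12 and 18, MTATP6P1 with 16 and 12, and MTCO3P29 with 12 and 10. The 27 copies of MT-ND6 held 5 and 8 counts in total, and the 38 copies of MT-ND5 held 17 and 23. Reads that map equally well to a copy were not counted for either gene, so mitochondrial levels are uncertain where copies match.

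Nuclear genes of the same pathways had lower median counts per kb than the mitochondrial mRNAs, with single genes reaching the range of the mRNAs. Of 92 nuclear genes with symbols of respiratory chain subunits, 30 (32.6%) reached 10 counts in each library, with a median of 2.53 counts per kb of exon over both libraries. NDUFB9, a complex I subunit gene that lies opposite MTSS1 and TATDN1, held 1336 and 1807 counts, or 765 counts per kb of exon over both libraries, above 7 of the 13 mitochondrial mRNAs. ATP5IF1, an inhibitor of ATP synthase, held 272 and 416 counts, or 309 per kb. ATP5S held 235 and 285 counts, and UQCRHL was among 14 genes at 0. Of 29 genes for mitochondrial transcription, RNA processing and decay, 8 (27.6%) reached the minimum, with a median of 1.11 counts per kb. POLG, the mitochondrial DNA polymerase gene, held 356 and 512 counts and lies opposite FANCI. MTERF2, of the family of mitochondrial termination factors, held 202 and 274, SLIRP, a partner of the mRNA-stabilizing protein LRPPRC, 67 and 80, and TFB2M, a mitochondrial transcription initiation factor, was among 3 genes at 0. Both shares stand beside 24.8% of all nuclear protein-coding genes.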

How the data were processed

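The deposited values are whole-number, unnormalized counts for each gene in 2 libraries, followed by tallies of unassigned reads that were left out. The submitters' processing notes name cutadapt, STAR 2.7.0f and GRCh38.p10. How reads were counted, on which strand, with which annotation and with which treatment of duplicates is not given in the sources used here. The cell line tag of the labels gives the name of the protein; HEL was taken from the source name.

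Genes were matched by identifier to GENCODE 29 (58039 of 58347), not necessarily the annotation the authors counted with; all 37 mitochondrial identifiers matched with their version. Lengths are annotated gene lengths. Library sizes were scaled by TMM in edgeR 4.0.16 (R 4.3.3) over genes with at least 1 count in each library, with factors of 1.01 and 0.987, and DESeq2 1.42.0 size factors were an alternative. Class ratios are summed counts per kb with exact conditional binomial 95% intervals. With 1 group, no quasi-likelihood test was run; the replicates were compared by an exact binomial test with Benjamini-Hochberg adjustment at 0.05, checked on simulated data. Other steps used Python 3.11.15, numpy 2.4.6, pandas 2.3.3, scipy 1.17.1 and matplotlib 3.10.9. Members and lists were chosen with earlier results of these data known. By rule, values are given for every mRNA and rRNA, for tRNAs with 10 or more counts in both libraries, for the 5 highest pseudogene copies, and for the 3 highest and the lowest gene of each other list; other members named were chosen after their values were seen.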

Additional observations from a re-analysis of the deposited data

How the results depend on the processing

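Ratios are given as means over the 2 libraries. With gene length plus 99 bases the light-over-heavy ratio was 3.99 for mRNAs and 2.48 for all genes, and the later-over-earlier ratio 5.23. With raw summed counts and no length the light-strand class was lower, at 0.206 for mRNAs and 0.286 for all genes, by construction, as it has fewer and shorter genes. For tRNAs that ratio was 5.11, for heavy-strand mRNAs over rRNAs 171 and for later over earlier 5.82. Leaving out bases shared with a same-strand gene gave 5.09 for later over earlier. Among members with at least 10 counts in each library the tRNA ratio was 5.36, that for all genes 4.84, and mRNAs over rRNAs 29.2. Medians over genes gave 7.24 for mRNAs and 4.86 for tRNAs. Without MT-ND5 the mRNA ratio was 6.14 and later over earlier 3.83. Without MT-TQ the ratio was 2.18 for tRNAs and 3.14 for all genes, and without the rRNAs 3.16 for all genes. Settings chosen after the data were seen gave 1.30 for tRNAs with a same-strand gene within 100 bases, 2.18 for all genes without MT-ND6 and 0.538 without MT-ND6 and MT-TQ. The cause of these moves was not tested beyond what each setting leaves out. In replicate 1 and replicate 2 alone the ratios were 4.18 and 4.37 (mRNAs), 7.69 and 10.0 (tRNAs), and 3.61 and 3.998 (all genes). In the same order they were 35.3 and 43.8 (mRNAs over rRNAs), and 5.17 and 5.16 (later over earlier).

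As a share of uniquely mapped reads the mitochondrial genes held 0.0142%, and 0.540% of gene counts. The replicate test called 73 genes without the filter, 49 with DESeq2 size factors and 48 with unscaled totals, against 45, and 0 mitochondrial genes in each. At least 1 count in each library was held by 32 members, at least 50 by 13, and the minimum of 10 in a single library by 20 or 22, against 19. In a single library it was passed by 6 or 7 pseudogene copies, 32 subunit genes and 8 RNA factor genes. Of 61 values under other settings, 36 stayed close to the value reported, 22 moved and 3 reversed. Many of the 36 came from 1 of the 2 libraries that gave the reported value, so the count of 36 does not test the results. Depth limits the tRNAs and MT-RNR1, most of which held under 10 counts. No paired analysis was possible because the 2 libraries form 1 group.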
